A study of Mus musculus with 10 samples.

Results

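The phagocyte NADPH oxidase and the proton channel that works beside it were followed in microglia through 7 genes, chosen by name from the 46152 genes counted: Cybb, Cyba, Ncf1, Ncf4, Rac1, Rac2 and Hvcn1. The list does not hold every gene of the complex. All 7 were found in the counts, and all 7 passed the filter on low values, which kept 28419 genes. No member had fewer than 367 fragments in any library, so none of them passed through 1 group alone.

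The oxidase moves electrons from NADPH across the membrane to oxygen and so makes superoxide. It is a latent enzyme, because its membrane part and its cytosolic part sit apart until a stimulus, such as a microbe or a complement fragment, phosphorylates the cytosolic subunits and switches on a Rac GTPase. In microglia, the resident macrophages of the brain, it is a major source of reactive oxygen species, and the charge and acid that electron export leaves behind are relieved by a voltage-gated proton channel.

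RNA came from 10 C57BL/6J mice, 8 to 12 weeks old per the study's methods, 5 gavaged daily with vehicle alone (Tween 80 at 0.1% with Hydroxymethyl Propyl-cellulose at 0.5%) and 5 with GW2580 in that vehicle at 80 mg/kg/d, over 8 days. GW2580 is an inhibitor of the kinase of CSF1R, the receptor on which microglia depend. Males numbered 2 and females 3 in each group, and libraries, 1 per mouse, carry the group and replicate number as their name. Cells of the Accutase-digested brain were enriched on a Percoll gradient and by magnetic selection for CD11b, a surface protein that monocytes, granulocytes and border macrophages also carry. Because each library is a bulk sample, fewer cells of a type and less RNA per cell cannot be told apart. The comparison asks whether the drug altered transcripts of the machinery that makes reactive oxygen species.

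The values are fragments on exons, of which each vehicle library had 12550418 to 20854218 and each GW2580 library 13228819 to 26079343. Of uniquely aligned fragments, 47.7 to 59.8% lay off annotated exons with vehicle and 47.1 to 70.8% with GW2580. This share was lowest in GW2580 3 and Vehicle 5 and highest in GW2580 4 and GW2580 1 (68.0%). With it as a covariate no member was called. Levels are CPM, the fragments of a gene relative to library size after TMM scaling, which assumes that most genes do not differ between libraries, or RPKM, the same per kilobase of exon. The libraries did not all lie with their own group: on the leading principal component, which held 47.1% of the variance over 7580 genes, Vehicle 1 to 4 lay at 35.0 to 40.5 but Vehicle 5 at -77.9, while GW2580 5 lay at 45.8 and the other GW2580 libraries at -46.4 to 5.20. Vehicle 5 and GW2580 5 thus each went against their label on this component, and the labels were kept. Whether these libraries carry the right label was not tested, and every group difference here takes them as given. Results that rest on Vehicle 5 or GW2580 5 are given with and without them. Microglial markers were high throughout, with a summed level of 16250 to 34852 CPM over 12 genes with vehicle and 21993 to 73365 with GW2580, although Trem2, a defining marker, had at most 1 fragment in each library, and whether the counting could register fragments there was not tested. The exons of Trem2 are annotated on an extra scaffold as well as on the chromosome, which is not so for any of the 7 members. The 14 markers of monocytes and granulocytes, all detected, summed to 782 to 28773 CPM with vehicle and 823 to 14307 with GW2580. Markers of several other cell types stood lower with GW2580. The median log2 difference was -2.19 over the oligodendrocyte, -1.96 over the lymphocyte and -1.60 over the astrocyte genes tested. It was also negative for the neuron (-1.04), erythroid (-1.17) and monocyte and granulocyte (-0.76) genes. For border macrophage (0.96) and endothelial and mural (0.06) genes it was positive. Without Vehicle 2 and Vehicle 5 the oligodendrocyte, lymphocyte and astrocyte medians were 0.05, 0.12 and 0.88. Vehicle 5 held the highest erythroid (2098 CPM) and lymphocyte (439 CPM) sums and, after Vehicle 2, the next highest oligodendrocyte sum (3229 CPM). With glial and neuronal markers as a covariate no member was called, and the part of lymphocyte and erythroid RNA in the members' results was not tested.

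The promoters of Cybb, Cyba and Ncf1, the 3 members held by the RefSeq promoter table used here, are shown because the transcription factors known to act on Cybb, PU.1 and the IRF factors, are followed among the related genes below, and to set the start of Cybb beside those of its partners. Each runs from 250 bases before to 20 bases after the annotated start, in GRCm38.p6, 5′ to 3′ on the minus strand, with searched motifs in capitals. The motifs, searched on both strands, were a composite site for PU.1 and an IRF factor (GGAA and GAAA with any 2 bases between them, or TTTC and TTCC on the other strand) and the GC box (GGGCGG or CCGCCC). They did not overlap in these windows. The start used for Cybb lies inside the gene as annotated, downstream of its outermost 5′ end at X:9487766, so that window belongs to another transcript start than the outermost.
Cybb, chrX:9469305-9469574: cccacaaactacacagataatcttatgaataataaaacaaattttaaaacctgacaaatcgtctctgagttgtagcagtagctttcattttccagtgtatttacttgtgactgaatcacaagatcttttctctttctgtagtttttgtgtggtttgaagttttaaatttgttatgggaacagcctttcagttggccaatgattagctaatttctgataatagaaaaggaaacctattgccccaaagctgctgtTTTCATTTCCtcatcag
Cyba, chr8:122432921-122433190: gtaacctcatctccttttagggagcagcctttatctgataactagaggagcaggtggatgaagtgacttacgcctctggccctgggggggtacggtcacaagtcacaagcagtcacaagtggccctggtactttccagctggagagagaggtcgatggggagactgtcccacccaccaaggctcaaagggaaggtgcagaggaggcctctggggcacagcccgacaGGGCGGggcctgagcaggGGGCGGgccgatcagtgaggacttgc
Ncf1, chr5:134229606-134229875: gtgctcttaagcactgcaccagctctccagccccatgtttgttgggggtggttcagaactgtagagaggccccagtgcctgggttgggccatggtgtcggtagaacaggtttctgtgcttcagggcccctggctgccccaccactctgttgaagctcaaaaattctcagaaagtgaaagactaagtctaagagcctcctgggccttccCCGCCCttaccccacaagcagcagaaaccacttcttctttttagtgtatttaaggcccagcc
The Cybb window held the composite motif at bases 4 to 13 after the start, a motif found in 2.47% of 32851 windows of this length. The Cyba window held the GC box at -24 to -19 and at -6 to -1, and the Ncf1 window at -42 to -37, a motif found in 34.1% of windows. A match describes letters and is not evidence of binding.

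With GW2580 the oxidase genes took no common direction. Of the members, 0 of 7 were called at the study's threshold of a fold over 2 and an unadjusted p under 0.05, against 10.7% of all 28419 genes. At an unadjusted p under 0.05 and any fold, 1 of 7 passed (Ncf1), against 14.7% of all genes. No gene in the whole table passed an adjusted p of 0.05 in this test, where 4186 genes had an unadjusted p under 0.05. DESeq2 gave 232 such genes, edgeR's likelihood ratio test 53 and its exact test 22, and limma-voom gave 0. With GW2580, 3 members stood higher (Cybb, Ncf1, Hvcn1) and 4 lower (Cyba, Ncf4, Rac1, Rac2), none past the threshold, with a median log2 difference of -0.13 beside -0.03 over all genes. Groups that did not overlap were seen for 0 of 7 members and for 3.03% of all genes.

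**Figure D1:**
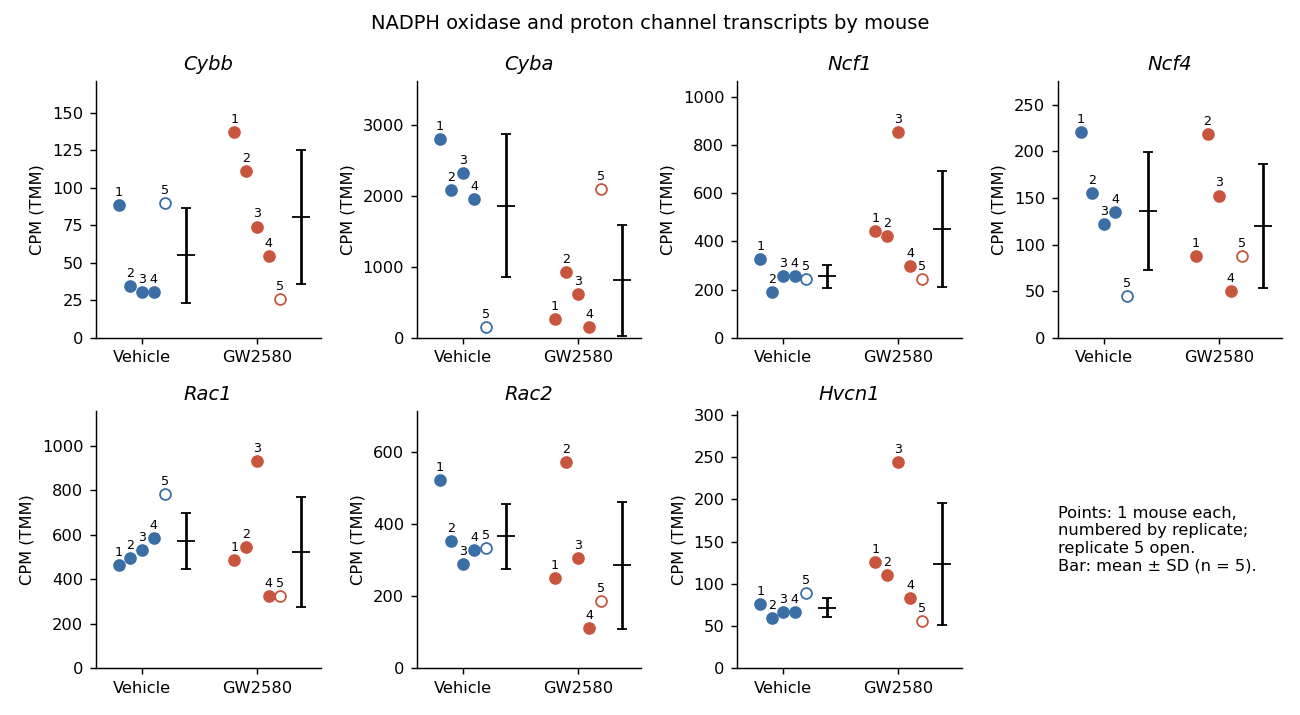
CPM (TMM) of each member, 1 point per mouse numbered by replicate, blue for vehicle and red for GW2580, with the mean ± SD (n = 5) as a bar at the right of each group and replicate 5 drawn open. The groups overlap for all 7 members, and the open points of Cyba lie with the other group.

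Cybb encodes gp91phox, the catalytic membrane subunit that carries the flavin and hemes (Entrez 13058, X:9435252-9487766, minus strand, 4804 bases of exon). Its level was 88.9, 34.6, 30.7, 30.4 and 90.0 CPM in Vehicle 1 to 5 and 137, 111, 74.2, 54.3 and 25.5 CPM in GW2580 1 to 5. GW2580 1 and 2 lay above every vehicle library and GW2580 5 below every one, and Vehicle 1 and 5 lay well above the other 3 vehicle libraries, so the groups overlapped. The fitted difference (GW2580 over vehicle) was 0.55 ± 0.48 on the log2 scale (SE; p = 0.272 and adjusted p = 0.597 in edgeR's quasi-likelihood test), and a two-sided exact permutation test of log2 CPM over the mice gave p = 0.349, where 0.00794 is the smallest that 5 against 5 allows. It was -0.042 when libraries were scaled to microglial markers, a scaling that moved the median of all genes to -0.36, and Cybb then stood at 0.32 relative to that median. Without Vehicle 5 and GW2580 5, left out because they stand apart in the same data, the fitted difference of Cybb was larger. It was then 0.94 (edgeR unadjusted p = 0.0371). The difference in mean log2 CPM over mice was then 1.10 (exact permutation p = 0.0857), against 0.52 with all libraries. Cybb was not called in that setting either, where 9442 of 27215 genes had an unadjusted p under 0.05 at any fold.

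Cyba encodes p22phox, the partner that stabilizes gp91phox in the membrane and holds the docking site for the cytosolic subunits (Entrez 13057, 8:122424771-122432940, minus strand, 759 bases of exon, the shortest of the members). Its level was 2800, 2083, 2326, 1951 and 150 CPM in Vehicle 1 to 5, and 258, 930, 618, 151 and 2101 CPM in GW2580 1 to 5. Vehicle 5 was as low as the lowest GW2580 library and GW2580 5 as high as the vehicle libraries. The other 4 libraries of each group did not overlap, as was so for 25.4% of all genes. The fitted difference was -1.20 ± 0.75 (edgeR p = 0.133, adjusted p = 0.458, exact permutation p = 0.254), the largest in size among the members, and it was not called.

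Cyba was the member that depended most on Vehicle 5 and GW2580 5. With both left out, its difference was -2.32 ± 0.57 (edgeR p = 0.00109, adjusted p = 0.0170, exact permutation p = 0.0286). It was then called lower, as were 15.2% of all genes tested in those 8 libraries, and it was the only member with an adjusted p under 0.05, against 17.8% of all genes. Cyba was also called lower without Vehicle 5 alone (-1.50, 6.74% of all genes), without GW2580 5 alone (-2.02, 13.2%), without Vehicle 2 and 5 (-1.54, 3.42%) and in males alone (-2.14, 14.3%). These libraries were picked because they stand apart from their groups in the same data, so a p-value without them describes the remaining 8 libraries and not the experiment as designed.

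The level of Cyba also moved with the share of fragments that fell on short genes. Genes with under 1000 bases of exon took 14.5 to 17.6% of fragments in Vehicle 1 to 4 but 3.93% in Vehicle 5, and 4.15 to 8.30% in GW2580 1 to 4 but 18.9% in GW2580 5. The 5 libraries with the highest shares were also the 5 with the highest Cyba, at 1951 CPM or more, and Cyba was at 930 CPM or less in the other 5. Cyba made up 1.19 to 1.54% of the fragments on short genes in Vehicle 1 to 4 and 1.22% in GW2580 5, against 0.326% in Vehicle 5 and 0.580 to 1.08% in GW2580 1 to 4. Among 3035 tested genes of at least 500 and under 1000 bases, 8.17% were called lower and 10.1% higher, with a median log2 difference of 0.05. Among 24038 tested genes of 1000 bases or more, 6.74% were called lower and 2.94% higher, with a median of -0.04. Short genes were thus called more often in both directions. With the trend against length removed, Cyba stood at -1.20 (adjusted p = 0.399). The part of the short-gene share in the Cyba result beyond this trend was not tested.

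**Figure D2:**
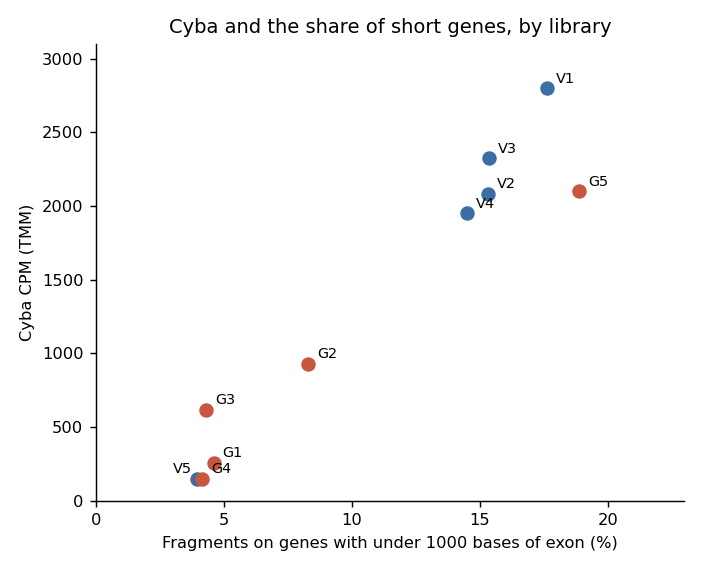
Cyba CPM (vertical axis) against the percentage of fragments on genes with under 1000 bases of exon (horizontal axis), 1 point per library, blue for vehicle (V) and red for GW2580 (G). V5 lies among the GW2580 libraries and G5 among the vehicle libraries on both axes.

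The ratio of Cybb to Cyba within a library does not depend on how libraries are scaled. In CPM it was 0.0317, 0.0166, 0.0132, 0.0156 and 0.599 in Vehicle 1 to 5 and 0.532, 0.120, 0.120, 0.360 and 0.0121 in GW2580 1 to 5. Vehicle 5 again had a ratio like that of GW2580 1, and GW2580 5 the lowest ratio of all. The log2 ratio was 1.80 higher with GW2580 (exact permutation p = 0.238, adjusted over the 3 ratios tested p = 0.357), which was less than the SD within either group, 2.31 and 2.12. Without Vehicle 5 and GW2580 5 it was 3.66 higher (exact p = 0.0286, the smallest that 4 against 4 allows, adjusted p = 0.0857).

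Ncf1 encodes p47phox, the organizer that carries the cytosolic subunits to the membrane once it is phosphorylated (Entrez 17969, 5:134220053-134229628, minus strand, 2972 bases of exon). Of its exon bases, 331 overlap a gene on the other strand, LOC115490142, and the counting did not use strand. Ncf1 stood at 326, 191, 257, 256 and 243 CPM in Vehicle 1 to 5, and at 441, 423, 854, 296 and 244 CPM in GW2580 1 to 5. GW2580 1, 2 and 3 lay above every vehicle library, and GW2580 4 and 5 lay within the vehicle range. The fitted difference was 0.83 ± 0.38 (edgeR p = 0.0495, adjusted p = 0.339, exact permutation p = 0.0635), below the fold of 2 that a call needs. Without Vehicle 5 and GW2580 5 it was 0.86 (edgeR unadjusted p = 0.0425, exact permutation p = 0.0571) and again not called.

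Ncf4 encodes p40phox, a cytosolic subunit that binds the lipid of phagosome membranes (Entrez 17972, 15:78244164-78262582, plus strand, 1630 bases of exon). It was at 221, 155, 122, 135 and 45.0 CPM in Vehicle 1 to 5 and at 87.3, 219, 153, 50.6 and 88.0 CPM in GW2580 1 to 5. All 5 GW2580 libraries lay within the vehicle range. The fitted difference was -0.18 ± 0.46 (edgeR p = 0.699, adjusted p = 0.873, exact permutation p = 0.722), and it turned slightly positive without Vehicle 1 (0.056) or GW2580 4 (0.018) and with granulocyte markers as a covariate (0.084).

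The ratio of Ncf1 to Ncf4 within a library separated the mice differently from either gene. It was 1.48, 1.23, 2.11, 1.90 and 5.41 in CPM in Vehicle 1 to 5 and 5.05, 1.93, 5.60, 5.86 and 2.78 in GW2580 1 to 5. Values above 5 were found in GW2580 1, 3 and 4 and in Vehicle 5, and the other 6 libraries were below 3. The log2 ratio was 0.90 higher with GW2580 (exact permutation p = 0.103, adjusted p = 0.310). It was 1.24 higher without Vehicle 5 (exact p = 0.0317, adjusted p = 0.0952) and 1.15 higher without GW2580 2 (exact p = 0.0476, adjusted p = 0.143). With any other single library left out, the exact p was 0.103 to 0.230. Without Vehicle 5 and GW2580 5 the log2 ratio was 1.36 higher (exact p = 0.0571, adjusted p = 0.0857).

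Rac1 and Rac2 encode the small GTPases that complete the active oxidase. Rac1 is expressed in most cells and also controls the actin cytoskeleton (Entrez 19353, 5:143505481-143528031, minus strand, 2364 bases of exon), and Rac2 is largely confined to blood cells (Entrez 19354, 15:78559169-78572783, minus strand, 3036 bases of exon). Rac1 was at 464, 494, 532, 584 and 785 CPM in Vehicle 1 to 5 and at 485, 545, 930, 325 and 325 CPM in GW2580 1 to 5. GW2580 3 lay above every vehicle library and GW2580 4 and 5 below every one. The difference was -0.13 ± 0.38 (edgeR p = 0.735, adjusted p = 0.891, exact permutation p = 0.540), and its sign changed without Vehicle 5 and GW2580 5 (0.039). With library size alone Rac1 stood at 0.0061, which was -0.22 relative to the median of all genes, 0.23 under that scaling.

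Rac2 was at 523, 353, 289, 328 and 333 CPM in Vehicle 1 to 5, and at 250, 571, 306, 110 and 187 CPM in GW2580 1 to 5. GW2580 1, 4 and 5 lay below every vehicle library, and GW2580 2 lay above every one. The difference was -0.36 ± 0.42 (edgeR p = 0.410, adjusted p = 0.705, exact permutation p = 0.238). With 1 library left out its sign did not change, but the size did: the difference was -0.77 without GW2580 2 (adjusted p = 0.430, with -0.84 and p = 0.0159 in the exact permutation test) and -0.15 without GW2580 4 (adjusted p = 0.891, with -0.25 and p = 0.476). The log2 ratio of Rac2 to Rac1 was 0.17 in Vehicle 1, 0.07 in GW2580 2 and between -1.61 and -0.48 in the other 8 libraries, and its group difference was -0.32 (exact p = 0.421, adjusted p = 0.421).

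Rac2 and Ncf4 were highest in the same libraries, Vehicle 1 and GW2580 2, and these were also the libraries with the highest sums of the 14 monocyte and granulocyte markers. The sum was 28773 CPM in Vehicle 1 and 14307 CPM in GW2580 2, against 782 to 8261 CPM in the other 8 libraries. The most abundant of these markers were Ngp, a granule protein of neutrophils (204 to 7959 CPM with vehicle, 306 to 6393 CPM with GW2580), and S100a9 (33.9 to 7991 CPM and 65.6 to 2139 CPM). With the mean of these markers as a covariate, Rac2 stood at -0.27 (adjusted p = 0.791) and Cybb at 0.59 (adjusted p = 0.604). With Vehicle 1 and GW2580 2 left out, Rac2 stood at -0.61 (adjusted p = 0.607), Ncf4 at -0.28 (adjusted p = 0.857) and Cybb at 0.66 (adjusted p = 0.667). Both settings were chosen after seeing the data, and neither led to a call of any member.

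**Figure D3:**
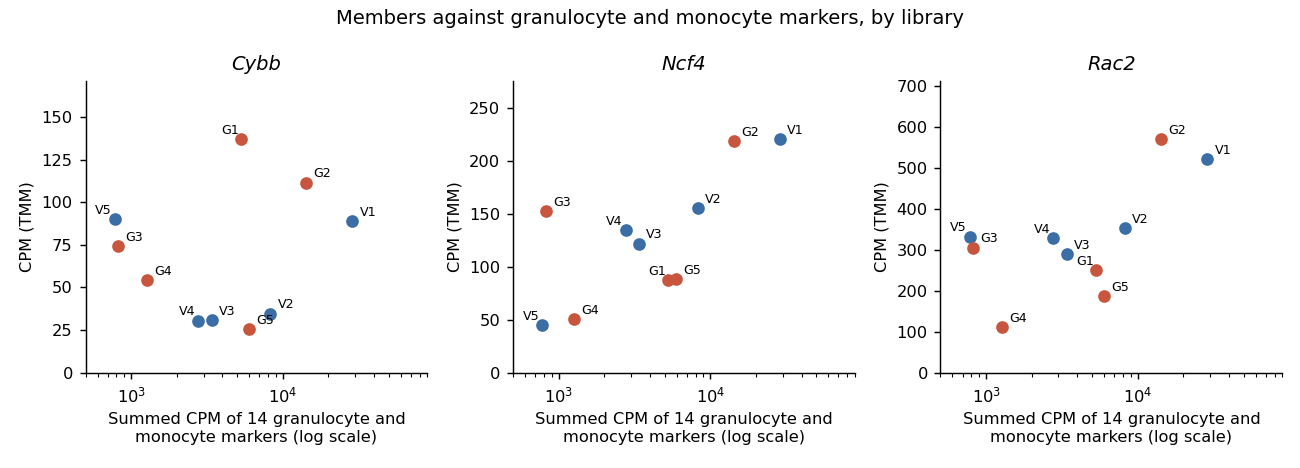
CPM of Cybb, Ncf4 and Rac2 (vertical axes) against the summed CPM of 14 monocyte and granulocyte markers (horizontal axes, log scale), 1 point per library, blue for vehicle (V) and red for GW2580 (G). V1 and G2 hold the highest marker sums and the highest values of Ncf4 and Rac2, while Cybb is highest in G1.

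Hvcn1 encodes the voltage-gated proton channel Hv1, which lets protons out as the oxidase exports electrons and which microglia carry (Entrez 74096, 5:122206805-122242297, plus strand, 3779 bases of exon). Of its exon bases, 1342 overlap Tctn1 on the other strand, and the counting did not use strand. Fragments that could belong to more than 1 gene were left unassigned. The level of Hvcn1 per kilobase, which uses all its exon bases, may thus be understated, and by how much was not tested. Hvcn1 was at 75.9, 59.7, 65.8, 66.9 and 88.9 CPM in Vehicle 1 to 5 and at 125, 111, 244, 82.8 and 56.3 CPM in GW2580 1 to 5. GW2580 1, 2 and 3 lay above every vehicle library, as for Ncf1, and GW2580 5 below every one. The difference was 0.79 ± 0.38 (edgeR p = 0.0560, adjusted p = 0.348, exact permutation p = 0.111). Without Vehicle 5 and GW2580 5 it was 0.96 ± 0.34 (edgeR p = 0.0120, adjusted p = 0.0596, exact permutation p = 0.0286). In those 8 libraries the groups did not overlap for 2 of 7 members, Cyba and Hvcn1, and for 25.4% of all genes.

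Ncf1 and Hvcn1 kept a positive difference in each of the 31 alternatives run, but its size depended on 1 library, on the scaling and on covariates. With the share of fragments off annotated exons as a covariate, Ncf1 stood at 0.95 (edgeR unadjusted p = 0.0120) and Hvcn1 at 0.99. With glial and neuronal markers they stood at 0.69 and 0.77, and with granulocyte markers at 0.77 and 0.69. Neither gene was called with these covariates. Without GW2580 3, which had the highest value of both and the smallest TMM factor (0.691), Ncf1 stood at 0.46 (adjusted p = 0.530) and Hvcn1 at 0.39 (adjusted p = 0.587). With library size alone, the median of all genes shifted to 0.23, and Ncf1 stood at 0.94 (edgeR p = 0.00413, adjusted p = 0.253, exact permutation p = 0.0159) and Hvcn1 at 0.92 (edgeR p = 0.00601, adjusted p = 0.253, exact permutation p = 0.0397). For both genes, 4 of 5 GW2580 libraries then lay above every vehicle library, as they did for 11.2% of all genes. Scaled to microglial markers, the median of all genes shifted to -0.36, and Ncf1 stood at 0.28 (adjusted p = 0.767) and Hvcn1 at 0.17 (adjusted p = 0.892). Relative to the median of all genes, Ncf1 stood at 0.71 and 0.64 under these scalings, in this order, and Hvcn1 at 0.69 and 0.53.

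**Figure D4:**
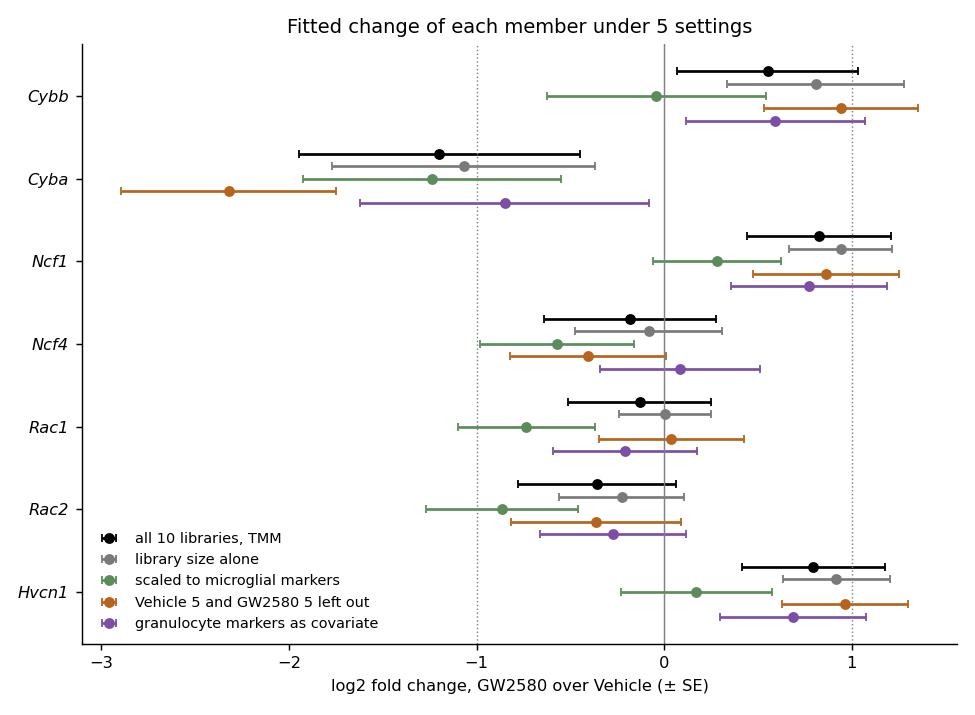
Fitted log2 fold change of each member (horizontal axis, GW2580 over vehicle, ± SE) under 5 settings, with dotted lines at the fold of 2 in each direction. Cyba lies below 0 and Ncf1 and Hvcn1 above 0 in all 5 settings, while Ncf4 with the granulocyte covariate (0.084) and Rac1 without Vehicle 5 and GW2580 5 (0.039) lie above 0. Cybb under microglial scaling (-0.042) and Rac1 under library size alone (0.0061) also change sign, where the median of all genes moved to -0.36 and 0.23.

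The members differed widely in level per kilobase of exon. With vehicle the mean RPKM was 2453 ± 1331 for Cyba, 242 ± 53.9 for Rac1, 120 ± 30.0 for Rac2, 85.7 ± 16.2 for Ncf1, 83.2 ± 38.9 for Ncf4, 18.9 ± 3.00 for Hvcn1 and 11.4 ± 6.57 for Cybb (SD, n = 5). The catalytic subunit thus had the lowest level and its membrane partner the highest. Each gene lay above the next in all 5 vehicle libraries except Cyba over Rac1 (4 of 5, all but Vehicle 5) and Ncf1 over Ncf4 (3 of 5), which did not differ beyond their spread. With GW2580 the mean RPKM was 1069 ± 1033 for Cyba, 221 ± 105 for Rac1, 152 ± 80.7 for Ncf1, 93.8 ± 57.9 for Rac2, 73.3 ± 40.9 for Ncf4, 32.8 ± 19.2 for Hvcn1 and 16.8 ± 9.25 for Cybb (SD, n = 5). Ncf1 there stood above Rac2 in 4 of 5 libraries, and the other neighbours kept their order in all 5. The order of the group means was the same with library size alone and in TPM.

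**Figure D5:**
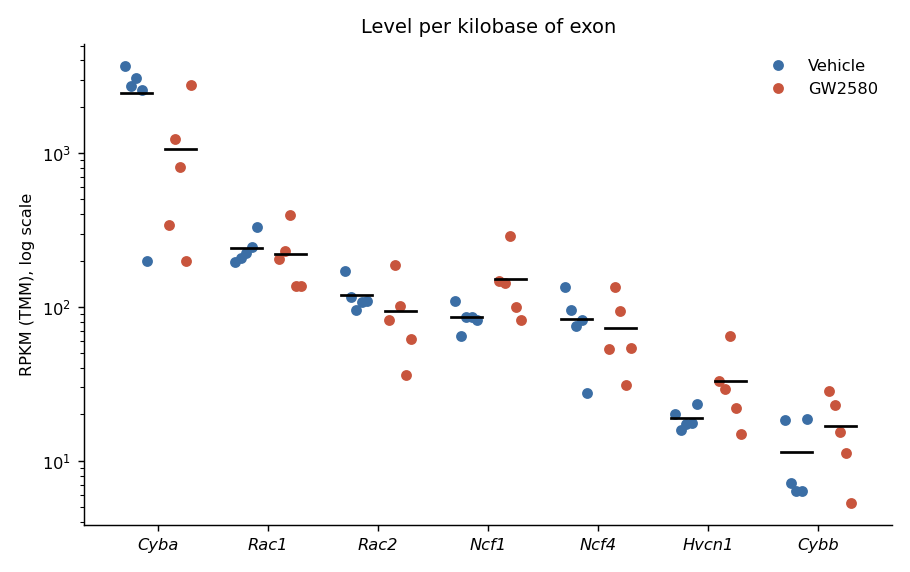
RPKM of each member by library (log axis), blue for vehicle and red for GW2580, with black lines at the group means (n = 5 each). Cyba is highest on average and spans more than 1 order of magnitude in each group, and Cybb has the lowest mean in both.

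The spread between mice, in CPM scaled by TMM, was larger with GW2580 for 6 of the 7 members. The coefficient of variation of the CPM was 15.9% with vehicle and 58.4% with GW2580 for Hvcn1, 18.9% and 53.1% for Ncf1, 22.3% and 47.5% for Rac1, 24.9% and 61.7% for Rac2, 46.7% and 55.7% for Ncf4 and 54.3% and 96.6% for Cyba. Cybb went from 57.5% to 55.2%. With library size alone the spread was again larger with GW2580 for 6 of 7, but by less for several: Ncf1 went from 23.3% to 27.6%, Rac1 from 18.5% to 20.5%, Hvcn1 from 14.3% to 33.9% and Cybb from 56.6% to 61.4%, and Ncf4 went from 49.2% down to 42.9%. The TMM factors themselves ran from 0.691 to 1.61 with GW2580 and from 0.856 to 0.975 with vehicle. This is a description, and the difference in spread was not tested. The same count over all genes was not made, so whether it is particular to these members was not tested either.

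Sex did not separate the members at this sample size. For the interaction of sex and treatment, 0 of 7 had an unadjusted p under 0.05, against 2.52% of all genes, and for sex itself 0 of 7, against 2.02%. The largest differences of females from males were -0.80 for Cybb, -0.78 for Ncf4 and -0.76 for Rac2 on the log2 scale, each with an adjusted p of 1 in edgeR's test. Cyba differed by -2.04 with GW2580 in males and -0.63 in females, with an interaction of 1.41 ± 1.62 (adjusted p = 1.00). Vehicle 5 and GW2580 5 were both from females.

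Among genes that feed the oxidase, the 21 genes of assembly and activation held 1 call. Prdx6, a peroxiredoxin whose phospholipase activity supports oxidase activation, was called lower, from 269 ± 241 to 90.8 ± 41.4 CPM (SD, n = 5), with a log2 difference of -1.57 (adjusted p = 0.280). It was no longer called without Vehicle 2 (-1.05, adjusted p = 0.547), nor with glial and neuronal markers as a covariate (-0.45, adjusted p = 0.652). Vehicle 2 also had the highest oligodendrocyte sum, 15105 CPM. The 3 genes of highest RPKM, averaged over both groups, were Arhgdib (-0.70, adjusted p = 0.533) and Arhgdia (0.23, adjusted p = 0.807), which hold Rac in the cytosol, and Prkcd, a kinase of p47phox (0.79, adjusted p = 0.386).

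Of these 21 genes, 15 stood higher and 6 lower, with a median of 0.35 beside -0.03 over all genes. Scaled to microglial markers, 6 stood higher and 15 lower, with a median of -0.35 beside -0.36 over all genes. Cybc1, a chaperone needed for gp91phox and p22phox protein and chosen here after its value was seen, went from 98.8 ± 12.5 to 180 ± 104 CPM (SD, n = 5; log2 difference 0.86, adjusted p = 0.316). With all 10 libraries, 0 of the 21 were called higher. Vehicle 5 and GW2580 5 stand apart from their groups in the same data, so a p-value without them describes only the remaining 8 libraries. Without them, 7.08% of all genes were called higher and 17.8% had an adjusted p under 0.05. In that setting 6 of the 21 were called higher and 0 lower. These 6, also named after their values were seen, were Vav1 (1.26, adjusted p = 0.0356), which loads Rac with GTP, Arhgap25 (1.11, adjusted p = 0.0258), which ends Rac signalling, Pik3r4 (1.27, adjusted p = 0.0182), Mapk14 (1.14, adjusted p = 0.0180), Akt1 (1.10, adjusted p = 0.0391) and Prkcd (1.08, adjusted p = 0.0586).

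Neither of the other pathway lists described here held a call with all 10 libraries. For the 9 other NADPH oxidase genes and their partners the median difference was -0.21. Without Vehicle 5 and GW2580 5, 2 of these 9 were called lower, where 15.2% of all genes were called lower. All 9 were low, and the highest per kilobase were Duoxa1 (2.82 RPKM with vehicle, 2.45 with GW2580), Noxo1 (2.18 and 2.29) and Nox3 (1.77 and 2.72), against 11.4 and 16.8 RPKM for Cybb. The 6 transcription factors known to act on Cybb had a median of 0.02, with Spi1, which encodes PU.1, at -0.050 (adjusted p = 0.971), Irf8 at 0.34 (adjusted p = 0.693) and Irf1 at 0.43 (adjusted p = 0.578).

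The members did not follow a single pattern across the 10 libraries. Ncf1 and Hvcn1 were closest to each other (Pearson r = 0.95 of log2 CPM), and Cyba was farthest from Cybb (r = -0.56). These correlations are a description over 10 libraries that differ in treatment and depth. Among 7372 protein-coding genes above 20 CPM, those most like Cyba were Batf3, Hspb3 and Ccl12 (r = 0.99 each), with 712, 781 and 536 bases of exon. Cybb was most like Adpgk (0.98), which encodes an ADP-dependent glucokinase, Lilr4b (0.95) and Pygl (0.95), and Ncf1 was most like Lrrfip1 (0.99), Cyp4v3 (0.98) and Slc11a1 (0.98), a metal transporter of phagosomes. Hvcn1 was most like Acsl5 (0.996), Mknk1 (0.99) and Mfsd1 (0.99), and Ncf4 was most like Ccrl2, Nucb2 and Cxcl10 (0.95 each). Rac2 was most like Lsp1, Ints12 and Metrnl (0.96 each), and Rac1 was most like Rbbp6 (0.99), Zfp422 (0.98) and Ptcd2 (0.97).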

How the data were processed

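RNA of CD11b-selected microglia was measured in 10 mice, 1 library each. After trimming, the authors aligned the pairs to GRCm38 with STAR and counted unique fragments on exons of RefSeq genes with featureCounts 1.6.3, without regard to strand. The deposited values are raw counts per gene, with exon lengths and, per library, fragments left unassigned, which were kept out of library sizes and tests. Groups, sex and replicate numbers came from the labels. RefSeq gave symbols for 46029 of the 46152 genes.

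Counts were scaled by TMM after a filter (over 1 CPM in 3 libraries or more) and fitted in edgeR 4.0.16 (R 4.3.3) by quasi-likelihood on treatment alone, with Benjamini-Hochberg adjustment over all genes. A call needs a fold over 2 with an unadjusted p under 0.05, the study's rule. Members and ratios were also compared by exact permutation (two-sided, 252 arrangements) of log2 CPM with a prior count of 2. The SE of a log2 difference was taken as the difference over the root of its F value. The test was tried on simulated counts.

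Alternatives were DESeq2 1.42.0, limma-voom (limma 3.58.1), edgeR's exact and likelihood ratio tests, other scalings, filters, prior counts (0.5 and 5), covariates, a loess fit on exon length (span 0.5) and left-out libraries. The members, gene lists and tests were chosen with earlier results of these data known. Named beside the members are the genes called in each pathway list, the 3 of highest RPKM in it, and the 3 most correlated with each member. The genes of 1 pathway list are not reported here singly and stay in the counts. The spread between mice, not counting error, underlies each p. Python 3.11.15, numpy 2.4.6, pandas 2.3.3, scipy 1.17.1 and matplotlib 3.10.9 were used.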

Additional observations from a re-analysis of the deposited data

Results flagged for a closer look

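In 20 sets of 5 libraries (the 7 members and 3 ratios in each group), 2 had a library far from the others, by a gap over 0.71 of the whole range, and chance gives about 1 in 20. The sets share libraries and genes, so they are not independent. Members were compared in CPM and ratios on the log2 scale. Cyba in Vehicle 5 had a gap of 0.680 in CPM. In log2 CPM it stood at 7.23 there and at 10.93 to 11.45 in the other vehicle libraries, but members were not tested on that scale. Rac2 was 523 CPM in Vehicle 1, with 289 to 353 CPM in the other vehicle libraries. The log2 ratio of Cybb to Cyba was -0.74 in Vehicle 5, with -6.24 to -4.98 in the other vehicle libraries.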

How the results depend on the processing

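No member was called in 26 of 31 alternatives. In the other 5, which left out Vehicle 5, GW2580 5, both, Vehicle 2 with Vehicle 5, or the females, 1 was called, and it was Cyba each time. Leaving out 1 library gave 0 to 1 called members. Cyba stayed lower in all 31 (-2.32 to -0.60), Ncf1 higher (0.28 to 0.95), Hvcn1 higher (0.17 to 0.99) and Rac2 lower (-0.87 to -0.15). Scalings that moved the median of all genes also changed signs: Cybb stood at -0.042 scaled to microglial markers (0.32 relative to the median of -0.36), and with library size alone (median 0.23) Rac1 stood at 0.0061 (-0.22 relative to it) and Ncf4, in mean log2 CPM over mice, at 0.025 (-0.31 in the fit, relative to it). Ncf4 reversed with granulocyte markers added (0.084) and ranged from -0.52 to 0.056 with 1 library left out. Its difference in mean log2 CPM over mice ranged from -0.55 to 0.072 with 1 library left out. Rac1 reversed with the share of fragments off annotated exons as a term (0.11), without Vehicle 5 (0.011), without GW2580 4 (0.0075), in males (0.011) and without Vehicle 5 and GW2580 5 (0.039, and 0.042 over mice), and was lowest, with 1 library left out, without GW2580 3 (-0.44). For the reversals under other settings the cause was not tested. The log2 ratio of Cybb to Cyba ranged from 1.29 to 2.81 with 1 library left out and was 3.66 without Vehicle 5 and GW2580 5. That of Ncf1 to Ncf4 ranged from 0.71 to 1.24. Of 43 related genes, 1 was called, 0 to 6 with 1 library left out, 8 without Vehicle 5 and GW2580 5 and 4 without Vehicle 1 and GW2580 2 (both chosen after seeing the data). With the replicate number as a block, 0 members and 2554 genes were called (3046 without it), Cyba stood at -1.76 and Ncf1 at 0.70 (adjusted p = 0.560, edgeR). Same-numbered libraries did not deviate together (correlations of -0.055, 0.39, 0.090, -0.44 and -0.57 for replicates 1 to 5), so the numbers were not taken as pairs.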
